A study of Mus musculus with 12 samples.

Results

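The vomeronasal receptor genes described here are the 197 genes of a total RNA count table whose symbol is Vmn1r or Vmn2r followed by a number and whose estimated counts, summed over 6 libraries, reached 30. The table held 337 such symbols among 49489 rows; 252 of them had a count above 0 and 85 had none. The 197 comprised 110 type 1 (Vmn1r) and 87 type 2 (Vmn2r) genes. They were chosen by the summed count of all 6 libraries, so their abundance is given as a description. Just inside the floor lay Vmn1r219 with a summed count of 30.03, Vmn1r237 with 31.4 and Vmn2r9 with 32.2. Just outside lay Vmn2r83 with 27.4, Vmn1r167 with 24.8 and Vmn1r212 with 19.0.

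The libraries came from a pulldown of Gas5, a noncoding transcript whose introns encode snoRNAs, in primary hippocampal neurons of mice taken at postnatal day 0 and cultured to day 16 in vitro. There were 3 libraries called antisense and 3 called sense, and the labels name no genotype, strain or added agent. Which of antisense and sense captured Gas5 and which served as control is not stated. Nor is it stated that libraries of a group are separate cultures, so p-values reflect the spread among libraries, and that spread could be technical. The 6 small RNA libraries of the series named no such symbol; their transcript identifiers were not matched to genes, and they were not used.

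Vomeronasal receptors are G protein-coupled receptors of the sensory neurons of the vomeronasal organ, which detects pheromones and other social chemical cues. Type 1 receptors are encoded in a single coding exon, are made in apical neurons and signal through Gnai2. Type 2 receptors are class C receptors with a large extracellular domain, are made in basal neurons that use Gnao1, and are found there together with nonclassical class I molecules of the H2-M family. Both neuron types depend on the channel Trpc2, and each neuron makes few of the receptors. The receptors are best known from that organ, not from the hippocampus.

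The genes lie in dense tandem clusters, and near-identical neighbours can limit what a read can be assigned to. To show the genes the results turn on, the 300 bases from 250 before to 50 after the gene start in RefSeq (GRCm38.p6) are given for 3 of them: Vmn2r53, with the most counts, on chr7:12606495-12606794 (minus strand); Vmn1r55, the type 1 gene with the most counts, on chr7:5147373-5147672 (minus strand); and Vmn1r47, the gene with the largest decrease, on chr6:90021638-90021937 (plus strand). Capitals mark the letters ATG at the annotated start.
Vmn2r53: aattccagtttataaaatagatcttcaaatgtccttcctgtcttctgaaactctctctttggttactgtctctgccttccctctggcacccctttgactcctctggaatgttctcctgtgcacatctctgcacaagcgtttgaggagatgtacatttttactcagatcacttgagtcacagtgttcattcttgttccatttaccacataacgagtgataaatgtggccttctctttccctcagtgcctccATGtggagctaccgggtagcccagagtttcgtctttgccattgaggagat
Vmn1r55: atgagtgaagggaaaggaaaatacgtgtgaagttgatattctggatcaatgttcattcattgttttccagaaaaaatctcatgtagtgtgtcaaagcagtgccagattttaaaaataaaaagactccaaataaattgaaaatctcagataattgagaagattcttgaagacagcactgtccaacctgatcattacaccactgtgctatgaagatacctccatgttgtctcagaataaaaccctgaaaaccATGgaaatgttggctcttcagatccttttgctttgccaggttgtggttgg
Vmn1r47: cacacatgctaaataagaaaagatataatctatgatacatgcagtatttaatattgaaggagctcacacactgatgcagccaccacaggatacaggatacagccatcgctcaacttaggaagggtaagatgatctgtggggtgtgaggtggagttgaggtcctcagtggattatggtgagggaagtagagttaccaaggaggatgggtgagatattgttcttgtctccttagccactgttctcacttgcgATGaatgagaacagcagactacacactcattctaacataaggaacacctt
RefSeq held such a window for 182 of the 197 genes, and 15 had none. The letters ATG stood exactly at the start in 157 of the 182 windows (86.3%), against 6.75% of all 27025 windows of the table. Their GC content had a median of 36.7% (24.3% to 62.3%), against 52.7% over all windows. The letters TATAAA, searched on both strands, were in 59 windows (32.4%), against 14.2% of all windows. The receptor windows are lower in GC and mostly placed at an ATG, so these shares are not like for like. No promoter element is read from them.

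Many windows were nearly the same. Compared with the most alike window of any other vomeronasal receptor symbol, the 182 had a median identity of 84.8%, the lowest was 47.3%, and 63 reached 90%. In 4 cases the windows were identical: Vmn1r47 and Vmn1r48, Vmn2r31 and Vmn2r33, Vmn2r32 and Vmn2r49, and Vmn2r45 and Vmn2r34. The gene named last in each pair held no or few counts: 0 in Vmn1r48, 8.26 in Vmn2r33, 0 in Vmn2r49 and 4.62 in Vmn2r34. Of the 300 bases of a window 250 lie before the gene start, and whole transcripts were not compared. Estimated counts can split reads between alike copies or give them to 1 copy. Whether that happened in these pairs was not tested, so their values are taken as uncertain. Vmn2r114 and Vmn2r115, both among the 10 genes with the most counts, are also shown, on chr17:23312264-23312563 (minus strand) and chr17:23343727-23344026 (plus strand). Their windows were 99.33% identical, and capitals mark the bases that differ.
Vmn2r114: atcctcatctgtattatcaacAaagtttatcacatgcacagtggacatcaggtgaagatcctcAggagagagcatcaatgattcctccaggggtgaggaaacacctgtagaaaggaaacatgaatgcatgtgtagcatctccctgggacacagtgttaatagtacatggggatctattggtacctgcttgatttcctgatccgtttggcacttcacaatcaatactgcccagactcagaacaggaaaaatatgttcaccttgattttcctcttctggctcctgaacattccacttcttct
Vmn2r115: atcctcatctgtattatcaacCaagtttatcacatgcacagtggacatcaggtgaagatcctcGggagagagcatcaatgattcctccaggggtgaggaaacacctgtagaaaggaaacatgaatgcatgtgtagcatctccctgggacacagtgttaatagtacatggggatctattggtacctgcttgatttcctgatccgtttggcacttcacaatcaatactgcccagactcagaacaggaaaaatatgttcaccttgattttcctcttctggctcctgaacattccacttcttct

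Total RNA libraries held 5775052 to 6293093 counts in the antisense group and 6478779 to 10424167 in the sense group. Gas5 itself took 9.706% to 14.2% of the counts in antisense libraries and 32.66% to 57.13% in sense libraries. Levels are therefore given as CPM (reads per 1e6 reads) of the library size after TMM scaling, which trims the genes with the most extreme ratios before libraries are compared. On plain library totals the median gene of the whole table was 0.70 higher in antisense on the log2 scale, against -0.01 with TMM. Hippocampal culture markers were present in every library. Summed levels were 790 to 988 CPM in antisense and 998 to 1250 CPM in sense for 9 neuron markers, and 829 to 1052 CPM in antisense and 946 to 1243 CPM in sense for 5 astrocyte markers. The 4 microglia markers summed to 15.3 to 19.2 CPM in antisense and 8.46 to 10.8 CPM in sense, and P2ry12 was at 0 in 2 sense libraries. The part of cell composition in the results below was not tested. In bulk RNA, fewer cells of a type and less RNA per cell cannot be told apart.

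Of the 197 genes, 173 passed the filter on low counts and 24 did not. With edgeR's quasi-likelihood test and Benjamini-Hochberg adjustment over all 20049 tested genes, 53 of the 173 (30.6%) were higher in antisense, against 18.2% of all tested genes, and 16 (9.25%) were lower, against 4.35%. The other 104 did not pass, with log2 fold changes of -0.91 to 1.0. The split depended on the scaling: on plain library totals 125 passed as higher and 3 as lower. Of all 20049 tested genes 12804 were higher and 62 lower on these totals, so most of the table was called higher as well. On plain library totals 9 of the 16 lower genes had a positive log2 fold change. In 70 of the 173 all 3 antisense libraries lay above all 3 sense libraries (23.5% of all tested genes did), in 20 they lay below (13.2% of all), and in 83 the groups overlapped. The median log2 fold change of the 173 was 0.28, against -0.01 for all tested genes. A gene that passed the filter through the group in which it was high had to differ, so these counts describe the tested genes only.

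**Figure D1:**
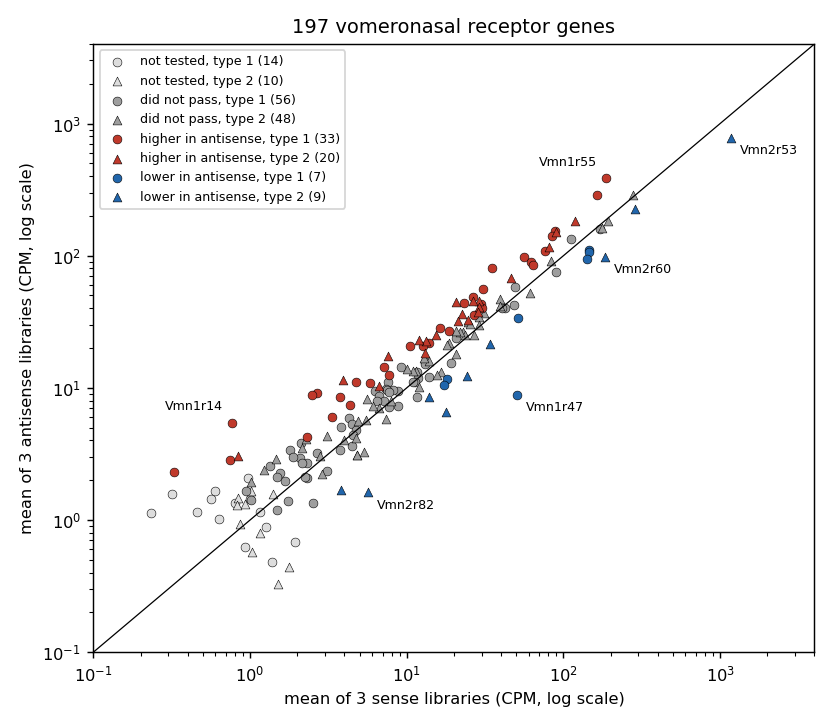
Mean level in the 3 antisense libraries (vertical axis, CPM, log scale) against the mean in the 3 sense libraries (horizontal axis, CPM, log scale) for each of the 197 genes; circles are type 1 and triangles type 2, red and blue mark the 53 higher and 16 lower genes with TMM scaling, and the line is equality. Vmn1r14 lies farthest above the line and Vmn1r47 farthest below it; on plain library totals 9 of the 16 blue genes had a positive log2 fold change.

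Summed over all 197 genes, the level was 6565, 6734 and 6930 CPM in antisense libraries 1 to 3, against 5863, 6837 and 6132 CPM in sense libraries 1 to 3. The groups overlapped, and the means of 6743 ± 183 (antisense) and 6277 ± 503 (sense) CPM (SD, n = 3 each) gave a ratio of 1.07. Without Vmn2r53 the ratio was 1.17, and on plain library totals it was 1.72. Type 1 genes summed to 3087, 3227 and 3282 CPM in antisense and 2348, 2789 and 2481 CPM in sense, with every antisense library above every sense library and a ratio of means of 1.26, which was 2.01 on plain library totals. Type 2 genes summed to 3478, 3507 and 3647 CPM in antisense and 3515, 4048 and 3651 CPM in sense, a ratio of 0.948 that became 1.08 without Vmn2r53 and 1.52 on plain library totals. As a share of all counts the 197 genes took 0.833% to 0.896% of antisense libraries and 0.356% to 0.677% of sense libraries. With Gas5 counts left out of the total these shares were 0.951% to 1.0% in antisense and 0.83% to 1.01% in sense, and the groups overlapped.

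The counts were concentrated in few genes. Of 270856 counts, Vmn2r53 held 14.6%, the 5 genes with the most counts 30.9%, the 10 with the most 43.3% and the 20 with the most 60.7%. The median gene had a summed count of 409, 60 genes had 1000 or more, and 41 had under 100.

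Among type 1 genes, 96 were tested, 33 were higher (34.4%), 7 were lower (7.29%) and 56 did not pass (median log2 fold change 0.40). The shares of all tested genes were 18.2% higher and 4.35% lower. The largest increase was in Vmn1r14 on chromosome 6 (57226155 to 57234350). It had 5.16, 5.8 and 5.34 CPM in antisense libraries, against 0.632, 0.644 and 1.03 CPM in sense libraries, so that each antisense value was several times each sense value. The means were 5.43 ± 0.332 (antisense) and 0.768 ± 0.225 (sense) CPM (SD, n = 3 each), a log2 fold change of 2.82 (edgeR adjusted p = 2.13e-05, SE 0.352). Vmn1r14, Vmn1r57, Vmn1r208 and Vmn2r130 had under 10 counts in every sense library and passed the filter on low counts through the antisense libraries alone, so they had to differ to be tested.

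Vmn1r208, on chromosome 13, had 2.15, 2.31 and 2.45 CPM in antisense, against 0.487, 0.156 and 0.343 CPM in sense (log2 fold change 2.75, edgeR adjusted p = 0.000356). Vmn1r226, on chromosome 17, had 7.36, 8.41 and 10.52 CPM in antisense and 2.37, 3.36 and 1.71 CPM in sense (log2 fold change 1.80, edgeR adjusted p = 0.00016). Vmn1r198, on chromosome 13, had 8.28, 8.75 and 10.15 CPM in antisense and 2.44, 3.47 and 2.14 CPM in sense (log2 fold change 1.78, edgeR adjusted p = 7.55e-05). In these 3 genes the groups stood clear of each other. The filter on low counts scales with library size. Vmn1r226 and Vmn1r198, with 15.0 and 15.4 counts in sense library 1, did not reach it in every sense library. They passed it through the antisense libraries, so their p-values are no independent support. Vmn1r206 had 12.6, 11.5 and 8.95 CPM in antisense and 5.29, 4.11 and 4.84 CPM in sense (log2 fold change 1.23, edgeR adjusted p = 0.000501). Vmn1r188 had 7.74, 8.23 and 9.77 CPM in antisense and 4.07, 4.60 and 2.60 CPM in sense (log2 fold change 1.17, edgeR adjusted p = 0.00259). Both lie on chromosome 13, and neither overlapped between groups.

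The call on Vmn1r57, on chromosome 7, rested on single libraries. Its level was 1.89, 4.2 and 2.45 CPM in antisense and 0.999, 1.07 and 0.167 CPM in sense, with a log2 fold change of 1.89 (edgeR adjusted p = 0.013), and antisense library 2 alone held 41.1% of its counts. Without antisense library 2 the edgeR adjusted p was 0.0714, and without sense library 3 it was 0.0692.

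Increases also reached abundant type 1 genes. Vmn1r55, on chromosome 7 (5146490 to 5147422), had 379, 393 and 386 CPM in antisense, against 170, 219 and 172 CPM in sense. Its means were 386 ± 7.2 (antisense) and 187 ± 27.9 (sense) CPM (SD, n = 3 each), a log2 fold change of 1.04 (edgeR adjusted p = 3.18e-06, SE 0.105). Vmn1r87, on chromosome 7 (13131471 to 13132358), had 78.6, 84.5 and 77.5 CPM in antisense and 31.0, 38.9 and 35.5 CPM in sense, with means of 80.2 ± 3.78 (antisense) and 35.1 ± 3.96 (sense) CPM (SD, n = 3 each). Its log2 fold change of 1.19 (SE 0.105) had an edgeR adjusted p of 8.7e-07. Vmn1r81 had 281, 305 and 279 CPM in antisense and 155, 175 and 161 CPM in sense (log2 fold change 0.82, edgeR adjusted p = 6.97e-06). For all 3 genes the antisense libraries lay well above the sense libraries and close to each other.

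The largest decrease of any of the 173 tested genes was in Vmn1r47, on chromosome 6 (90021888 to 90022820). Its level was 8.69, 10.7 and 7.03 CPM in antisense, against 46.7, 50.5 and 53.4 CPM in sense. The highest antisense library stayed far below the lowest sense library. The means were 8.80 ± 1.83 (antisense) and 50.2 ± 3.35 (sense) CPM (SD, n = 3 each), and the log2 fold change was -2.51 (edgeR adjusted p = 1.75e-08, SE 0.145), which is 5.71-fold lower. As shown with the sequences, its start window is identical to that of Vmn1r48, which held no count in any library.

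Other type 1 decreases were small. Vmn1r207, on chromosome 13, had 31.4, 35.2 and 35.3 CPM in antisense and 48.7, 54.9 and 50.5 CPM in sense; the log2 fold change was -0.60 (edgeR adjusted p = 0.00037) but 0.10 on plain library totals. Vmn1r217, on chromosome 13, had 13.3, 9.92 and 11.9 CPM in antisense and 15.5, 22.1 and 16.7 CPM in sense; the log2 fold change was -0.63 (edgeR adjusted p = 0.0157) but 0.05 on plain library totals. Its edgeR adjusted p was 0.0607 without antisense library 2 and 0.0751 without sense library 2. Vmn1r174 had 13.9, 8.56 and 8.93 CPM in antisense and 18.17, 19.99 and 13.34 CPM in sense, and it was the only lower gene whose groups overlapped (log2 fold change -0.71, edgeR adjusted p = 0.0214). That call was lost without antisense library 2, antisense library 3, sense library 1 or sense library 2, with edgeR adjusted p-values of 0.0581 to 0.0797, and on plain library totals, where the log2 fold change was -0.0038 (edgeR adjusted p = 0.99). Its start window was 99.0% identical to that of Vmn1r173, which did not pass at a log2 fold change of -0.32 (edgeR adjusted p = 0.22).

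Among type 2 genes, 77 were tested, 20 were higher (26.0%), 9 were lower (11.7%) and 48 did not pass (median log2 fold change 0.24). The shares of all tested genes were 18.2% higher and 4.35% lower. The most abundant, Vmn2r53, lies on chromosome 7 (12581470 to 12606544) and was lower with TMM scaling. It had 776, 779 and 770 CPM in antisense libraries, against 1118, 1258 and 1162 CPM in sense libraries, and the groups did not overlap. The means of 775 ± 4.38 (antisense) and 1179 ± 71.7 (sense) CPM (SD, n = 3 each) gave a log2 fold change of -0.61 (edgeR adjusted p = 7.81e-05, SE 0.0878), which was 0.08 on plain library totals.

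Vmn2r60, on chromosome 7 (42116471 to 42195776), had 101, 93.4 and 100 CPM in antisense, against 171, 196 and 184 CPM in sense. Every sense library was well above every antisense library, with means of 98.3 ± 4.25 (antisense) and 184 ± 12.6 (sense) CPM (SD, n = 3 each) and a log2 fold change of -0.90 (edgeR adjusted p = 3.12e-06, SE 0.091). On plain library totals the log2 fold change of Vmn2r60 was -0.21 and did not pass (edgeR adjusted p = 0.395). Vmn2r52, on chromosome 7, had 6.84, 5.46 and 7.47 CPM in antisense and 16.4, 19.2 and 17.6 CPM in sense (log2 fold change -1.42, edgeR adjusted p = 1.87e-05). Vmn2r82, on chromosome 10, had 0.943, 1.42 and 2.51 CPM in antisense and 4.59, 6.23 and 6.16 CPM in sense (log2 fold change -1.79, edgeR adjusted p = 0.00128). The groups of these 3 genes did not overlap. Vmn2r82, with 7.17 counts in antisense library 1, passed the filter on low counts through the sense libraries, so its p is no independent support.

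Vmn2r75 had 9.65, 14.6 and 12.2 CPM in antisense and 20.2, 26.8 and 26.0 CPM in sense (log2 fold change -1.0, edgeR adjusted p = 0.000351), a call lost on plain library totals, where the log2 fold change was -0.32 (edgeR adjusted p = 0.263). Vmn2r73 had 19.7, 22.2 and 22.1 CPM in antisense and 33.6, 33.5 and 35.6 CPM in sense; the log2 fold change was -0.68 (edgeR adjusted p = 0.000262) but 0.03 on plain library totals. Vmn2r86, on chromosome 10, had 8.61, 8.51 and 8.66 CPM in antisense and 12.6, 14.3 and 14.8 CPM in sense; the log2 fold change was -0.70 (edgeR adjusted p = 0.00571) but 0.01 on plain library totals. Every antisense library of these 3 lay below every sense library. The call on Vmn2r8 was not stable. This gene, on chromosome 5, had 1.40, 1.87 and 1.82 CPM in antisense and 2.94, 4.93 and 3.63 CPM in sense (log2 fold change -1.14, edgeR adjusted p = 0.0218). Its edgeR adjusted p was 0.088 without antisense library 1 and 0.107 without sense library 2, and DESeq2 gave 0.109. On plain library totals its log2 fold change was -0.46 (edgeR adjusted p = 0.315).

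The type 2 increases were led by Vmn2r130, which has no position in the RefSeq table used. It had 2.97, 2.42 and 3.70 CPM in antisense, against 0.447, 0.674 and 1.40 CPM in sense (log2 fold change 1.90, edgeR adjusted p = 0.00375). Vmn2r88, on chromosome 14, is a receptor for haemoglobin in mice. Its level was 10.8, 7.99 and 15.7 CPM in antisense and 3.73, 4.35 and 3.63 CPM in sense (log2 fold change 1.54, edgeR adjusted p = 0.000424). The antisense values were spread, but all lay above the sense values. Vmn2r101, on chromosome 17, had 15.5, 18.4 and 18.2 CPM in antisense and 7.61, 7.84 and 7.19 CPM in sense (log2 fold change 1.20, edgeR adjusted p = 4.55e-05). Vmn2r56, on chromosome 7, had 45.7, 45.6 and 41.7 CPM in antisense and 15.6, 25.3 and 20.7 CPM in sense (log2 fold change 1.11, edgeR adjusted p = 3.07e-05). Both had groups that did not overlap.

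**Figure D2:**
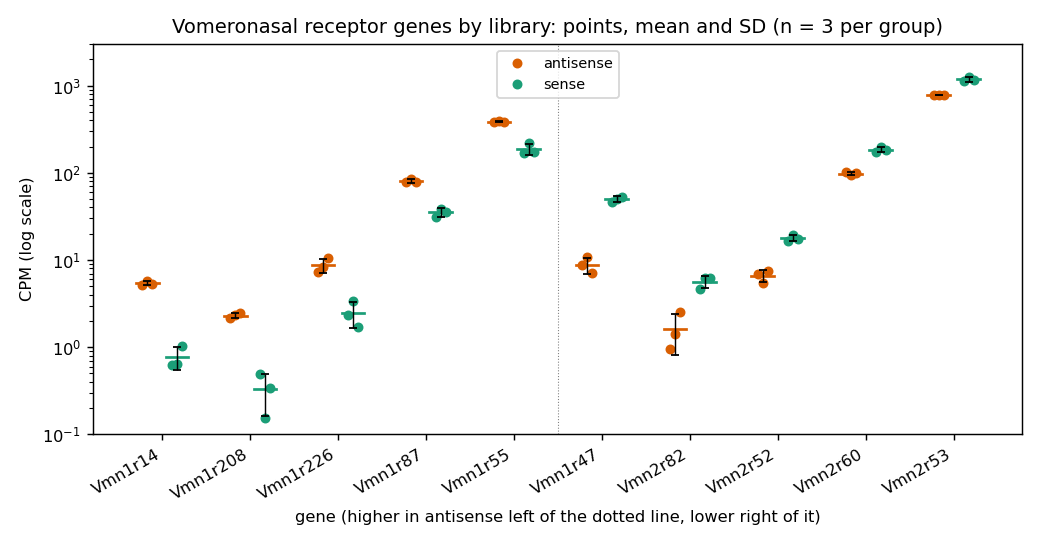
Level in each library (CPM, log scale) of 5 genes higher and 5 genes lower in antisense with TMM scaling; points are libraries, the wide line is the mean and the bar the SD of 3 libraries, with antisense left of sense for each gene. In all 10 genes the 3 antisense libraries lay on 1 side of the 3 sense libraries; Vmn2r53 was not lower on plain library totals.

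A few type 2 genes with a known ligand or role were picked with their values known and lie outside the rule by which genes were named. Vmn2r116, the receptor for the male tear peptide ESP1, had 31.8, 30 and 35.5 CPM in antisense and 26.1, 24.1 and 23.2 CPM in sense. The groups were close but did not overlap (log2 fold change 0.41, edgeR adjusted p = 0.0193). This call was lost with DESeq2 (adjusted p = 0.0881) and without antisense library 1, antisense library 3 or sense library 3 (edgeR adjusted p up to 0.0932). Its start window was 98.0% identical to that of Vmn2r112, with a summed count of 3643. Whether reads were shared between these genes was not tested. Vmn2r26, which responds to peptide ligands of class I molecules, had 23.7, 21.4 and 23.6 CPM in antisense and 14.1, 12.5 and 9.41 CPM in sense (log2 fold change 0.93, edgeR adjusted p = 0.000313). Vmn2r1 and Vmn2r3 to Vmn2r7 belong to the small clade of type 2 receptors that basal neurons make broadly alongside a more selective receptor. Of these 6 genes, Vmn2r6 rose by a log2 fold change of 0.64 (edgeR adjusted p = 0.0013) and Vmn2r1 had one of 0.41 (edgeR adjusted p = 0.0156). The call on Vmn2r1 was lost with DESeq2 (adjusted p = 0.0668) and without antisense library 1, antisense library 3, sense library 1 or sense library 3 (edgeR adjusted p up to 0.0896). The other 4 did not pass, at log2 fold changes of -0.31 for Vmn2r3, 0.25 for Vmn2r4, 0.38 for Vmn2r5 and 0.23 for Vmn2r7. The start windows of Vmn2r6 and Vmn2r7 were 99.33% identical, and whether reads were shared between them was not tested.

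Several of the most counted genes did not pass. Vmn2r76 had 282, 299 and 278 CPM in antisense and 264, 299 and 266 CPM in sense, and the groups overlapped (log2 fold change 0.05, edgeR adjusted p = 0.753). Vmn2r120 had 156, 153 and 176 CPM in antisense and 157, 192 and 175 CPM in sense, again overlapping (log2 fold change -0.11, edgeR adjusted p = 0.482). Vmn1r76 had 152, 163 and 162 CPM in antisense and 167, 177 and 168 CPM in sense. Its antisense libraries were all slightly below its sense libraries, and it did not pass (log2 fold change -0.10, edgeR adjusted p = 0.459). Vmn2r79 was the only type 2 gene among the 10 with the most counts that was higher, with 179, 185 and 184 CPM in antisense and 111, 134 and 112 CPM in sense (log2 fold change 0.62, edgeR adjusted p = 0.000149).

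The neighbours with near-identical start windows, Vmn2r114 (chromosome 17, 23290934 to 23312313) and Vmn2r115 (23343977 to 23360128), gave different calls. Vmn2r114 had 219, 228 and 235 CPM in antisense and 274, 297 and 287 CPM in sense, and the groups did not overlap. Its log2 fold change of -0.33 (edgeR adjusted p = 0.0105) was 0.37 on plain library totals, and without antisense library 1 the edgeR adjusted p was 0.0652. Vmn2r115 had 175, 183 and 193 CPM in antisense and 184, 199 and 194 CPM in sense, which overlapped (log2 fold change -0.07, edgeR adjusted p = 0.656). A difference between these genes was not tested.

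Counts do not compare levels between genes of different length, so levels were set per length only for 85 of 110 type 1 genes. These were the genes whose RefSeq span was under 1100 bases and a multiple of 3, as 1 coding stretch would be. Their spans ran from 870 to 1098 bases. Vmn1r55 was the highest at 414 ± 7.71 CPM per kilobase in antisense and 201 ± 29.9 in sense (SD, n = 3 each). Vmn1r81 followed with 313 ± 15.6 CPM per kilobase in antisense and 178 ± 11.2 in sense. Vmn1r218 had 171 ± 13.3 CPM per kilobase in antisense and 98.9 ± 12.6 in sense. Vmn1r76 had 163 ± 6.21 CPM per kilobase in antisense and 175 ± 5.47 in sense. Vmn1r197 had 156 ± 8.42 CPM per kilobase in antisense and 94.5 ± 14.2 in sense. In antisense, Vmn1r218, Vmn1r76 and Vmn1r197 followed each other by less than their spread, and in sense Vmn1r81 and Vmn1r76 differed by less than theirs.

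Single libraries weighed on some rare genes. Vmn1r219 had 13.7, 7.22 and 4.61 counts in antisense libraries and 2.03, 2.43 and 0 in sense libraries, so antisense library 1 held 45.7% of its counts. Vmn2r32 had 2.17, 8.14 and 0 counts in antisense and 3.74, 9.33 and 19.3 in sense, with 45.2% in sense library 3. Vmn1r33 had 14.1, 4.12 and 4.97 counts in antisense and 3.63, 5.11 and 3.06 in sense, with 40.3% in antisense library 1. Vmn2r42 had 9.79, 6.19 and 22.0 counts in antisense and 5.38, 9.96 and 3.58 in sense, with 38.6% in antisense library 3. None of these 4 was tested, and no gene of the 197 was at 0 in all libraries of a group.

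The calls were also counted by summed count. Of 41 genes with summed counts of 30 to 100, 17 were tested and 3 of these were higher (17.6%), against 42.6% of all tested genes with such counts. At these counts the filter keeps genes that are high in 1 group, so both shares follow from the filter in part and nothing is read from them. From 100 to 1000 counts, 23 of 96 were higher (24%) and 7 lower (7.29%), against 17.9% and 3.01% of all tested genes. At 1000 counts or more, 27 of 60 were higher (45.0%) and 9 lower (15.0%), against 8.74% and 8.0% of all 6485 tested genes with such counts.

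**Figure D3:**
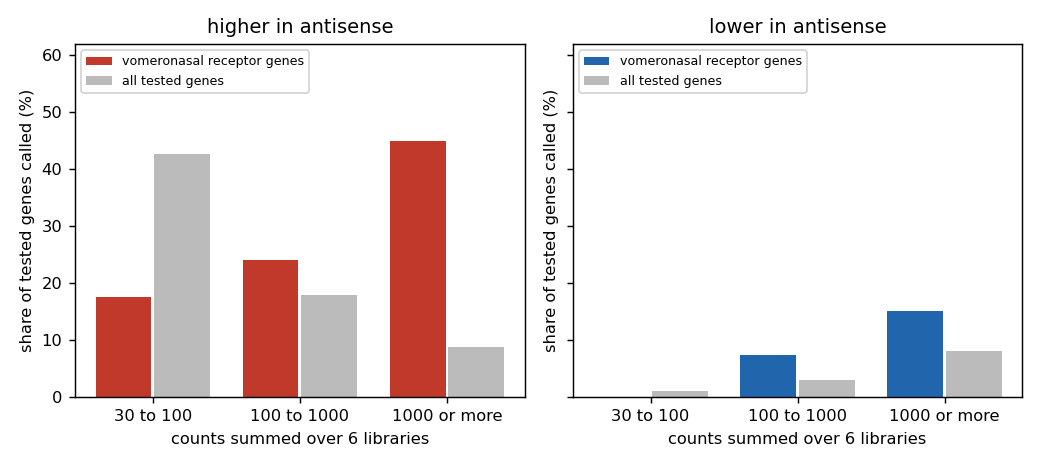
Share of tested genes (vertical axis, percent) that passed as higher (left panel) or lower (right panel) in antisense with TMM scaling, by counts summed over 6 libraries, for vomeronasal receptor genes (coloured bars) and all tested genes (grey bars). For higher genes the receptor bars reach 24% and 45.0% at 100 to 1000 and at 1000 or more counts, and the grey bars 17.9% and 8.74%; at 30 to 100 counts only 17 of 41 receptor genes passed the filter, which keeps genes high in 1 group.

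The libraries also differed within groups. Among the 60 genes with 1000 counts or more, the median coefficient of variation was 6.04% over antisense libraries and 10.9% over sense libraries, against 8.12% over antisense and 8.01% over sense libraries for 6426 other genes with such counts. Sense library 2 had the highest level of the 3 sense libraries for 50 of these 60 genes (83.3%) and for 124 of all 197 (62.9%), against 33.8% of all tested genes. Sense library 2 was also the sense library with the smallest Gas5 share, 32.66%, against 57.13% and 46.12% in sense libraries 1 and 3. The part of the Gas5 share in this difference was not tested.

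Across all tested genes 18.2% were higher and 4.35% lower, and the counts per chromosome are given against these shares. By position, 72 of the genes were on chromosome 7, 37 on chromosome 6, 35 on chromosome 17 and 27 on chromosome 13. On chromosome 7, 19 of 63 tested genes were higher (30.2%) and 8 lower (12.7%). On chromosome 13, 10 of 22 were higher (45.5%) and 2 lower (9.09%). On chromosome 17, 10 of 32 were higher (31.2%) and 1 lower (3.12%), the lower share being near that of all genes. On chromosome 6, 8 of 33 were higher (24.2%) and 2 lower (6.06%), both near the shares of all genes. On chromosome 10 none of 4 tested genes was higher and 2 were lower, Vmn2r82 and Vmn2r86. The 2 tested genes on chromosome 14, Vmn2r88 and Vmn2r89, were both higher.

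Some neighbours passed in opposite directions with TMM scaling. Pairs were consecutive genes of the 197 within 1 Mb of each other, so other genes can lie between them. Of 171 such pairs, 18 had both genes passing: in 11 both were higher, in 0 both were lower, and in 7 they were opposite. Taken singly, 53 of the 173 tested genes were higher and 16 lower. The share of such pairs among all genes was not computed, so nothing about neighbours is read from these counts. Vmn1r46 and Vmn1r47, 44788 bases apart on chromosome 6, had log2 fold changes of 0.80 and -2.51. Vmn1r87 (1.19) and Vmn1r88 (-0.46) were opposite on chromosome 7. So were Vmn2r59 (0.75) and Vmn2r60 (-0.90), and Vmn2r60 and Vmn2r63 (0.60). Vmn2r60 and Vmn2r63 lie 707475 bases apart. The other opposite pairs, all on chromosome 13, were Vmn1r206 (1.23) and Vmn1r207 (-0.60), Vmn1r207 and Vmn1r208 (2.75), and Vmn1r217 (-0.63) and Vmn1r218 (0.79). On plain library totals Vmn1r88, Vmn1r207 and Vmn1r217 had positive log2 fold changes, and only 3 of the 7 pairs had opposite signs.

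**Figure D4:**
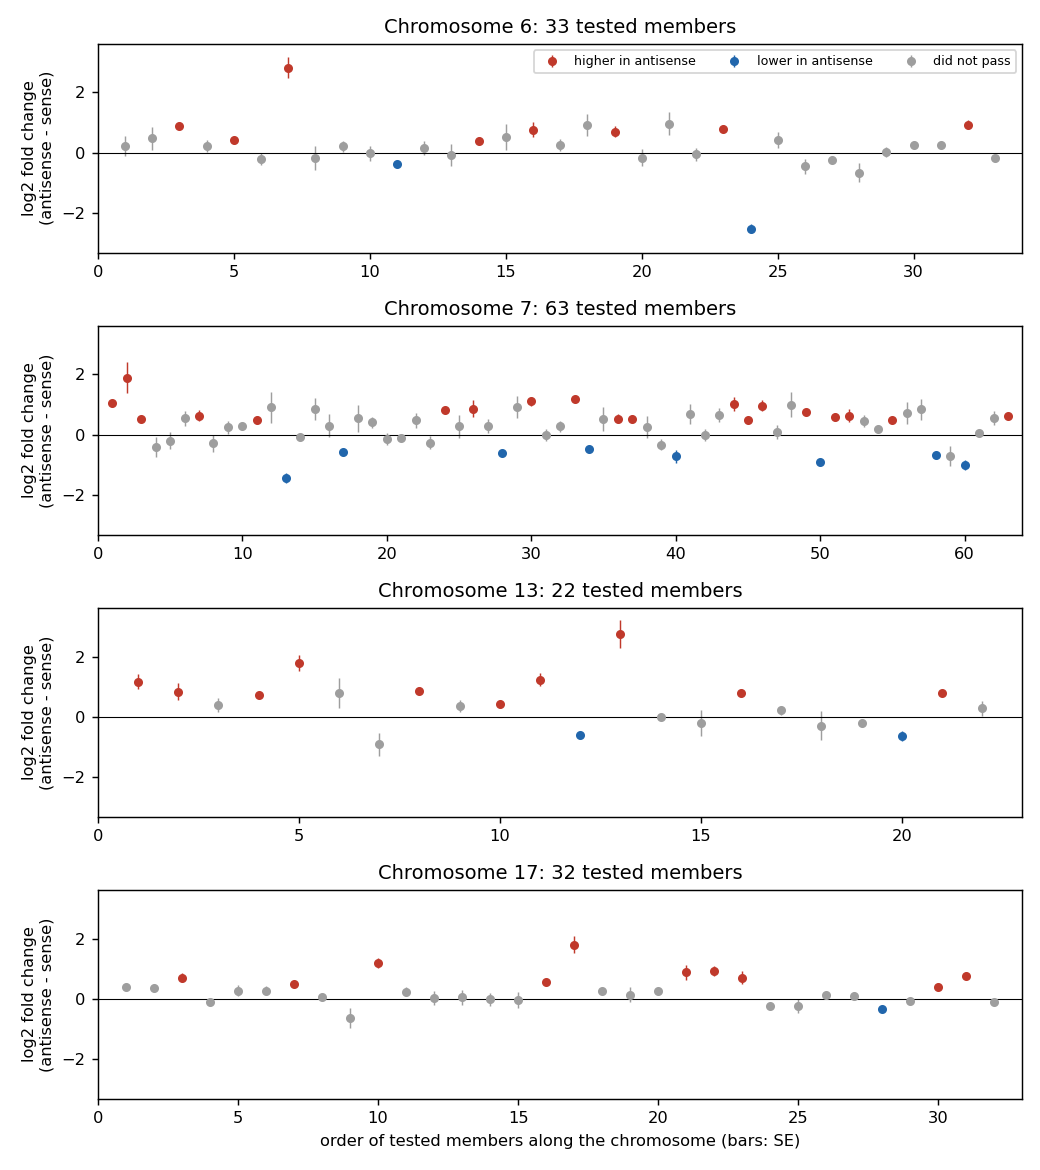
Log2 fold change (antisense minus sense, vertical axis) of each tested vomeronasal receptor gene in its order along chromosomes 6, 7, 13 and 17, with TMM scaling; bars are the SE of the fit, red and blue mark higher and lower genes, and grey those that did not pass. Higher and lower genes stand next to each other on chromosomes 6, 7 and 13, as with Vmn1r46 (0.80) and Vmn1r47 (-2.51) on chromosome 6.

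Few of the genes overlapped another gene. Of the 197 genes, 179 overlapped no other RefSeq gene. Among these 156 were tested, 45 were higher (28.8%) and 14 lower (8.97%), against 18.2% and 4.35% of all tested genes. A further 16 overlapped a gene with a low level. Among these 15 were tested, 7 were higher (46.7%) and 2 lower (13.3%), the lower genes being Vmn2r53 and Vmn2r60. Only Vmn1r4 overlapped a gene with a mean of 10 CPM or more, Nt5c3, and it did not pass, with 3.17, 2.58 and 2.41 CPM in antisense and 1.89, 2.96 and 2.06 CPM in sense (log2 fold change 0.23, edgeR adjusted p = 0.682). Whether counting used strand is not given in the sources used here.

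The estimated counts of these genes were almost never whole. A value within 0.001 of a whole number was found in 14 of 1177 values above 0 (1.19%), and no gene was whole in all its libraries. Among 22258 other genes with summed counts of 30 or more, 34.4% of values were whole and 24.5% of genes were whole in all libraries. Salmon divides reads that match several transcripts among them, and the divided counts are fractions. The part of such division in these values was not tested. The odorant receptor genes were similar, with 4.21% of values whole. The 11 transduction genes described next had 57.1% whole.

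Among the 11 genes with which vomeronasal neurons signal, 7 were tested. By edgeR 0 were higher and 1 was lower at an adjusted p under 0.05, 0 and 2 at an unadjusted p under 0.05, and DESeq2 also gave 0 and 1. The lower genes were Gnai2 and, at an unadjusted p alone, Gnao1. Gnai2, the G protein subunit used by type 1 neurons but also made in many other cells, had 49.3, 45.5 and 49.4 CPM in antisense and 71.5, 51.8 and 78.0 CPM in sense, without overlap; its log2 fold change of -0.48 (edgeR adjusted p = 0.0136) was 0.26 on plain library totals. Gnao1, the subunit of type 2 neurons and a major G protein of brain neurons, had 204, 197 and 218 CPM in antisense and 242, 227 and 242 CPM in sense, and it did not pass (log2 fold change -0.20, edgeR adjusted p = 0.124; 0.51 on plain library totals). Trpc2, the transduction channel, had 0, 19.4 and 25.3 counts in antisense and 25.4, 14.0 and 0 counts in sense, with a library at 0 in each group. Omp, the olfactory marker protein, had 20, 11 and 15 counts in antisense and 8, 13 and 18 counts in sense, and the groups overlapped. Gng8, the gamma subunit of these neurons, had 2 to 4 counts in antisense and 2 to 5 in sense. The 6 markers of vomeronasal or olfactory sensory neurons summed to 55.5 to 63.3 CPM in antisense and 58.0 to 70.5 CPM in sense, nearly all of it from Gnal and Adcy3, which brain neurons also make. The channel subunit Cnga2 had 3 counts in 6 libraries.

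**Figure D5:**
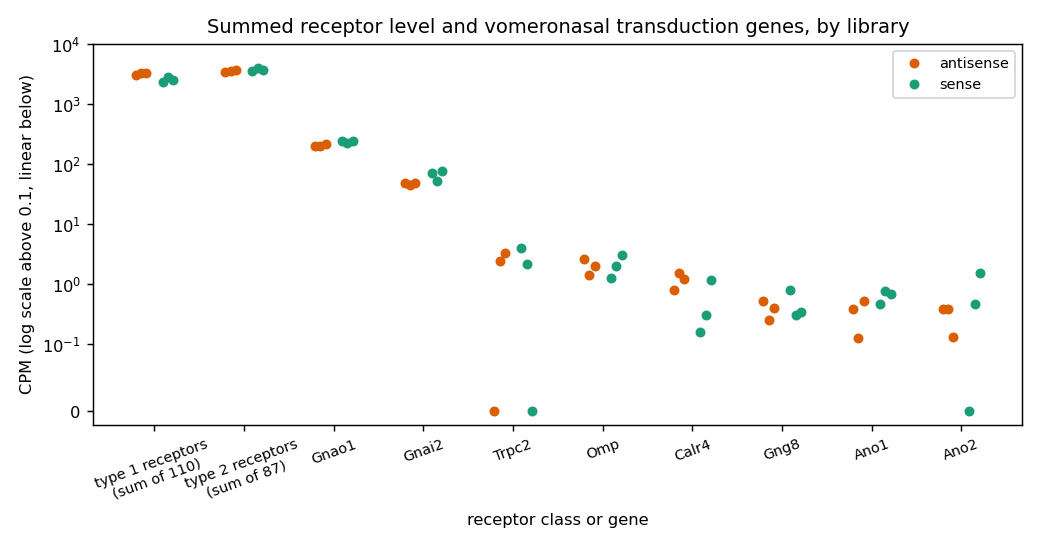
Level in each library (CPM, log scale above 0.1 and linear below) of all type 1 receptors summed, all type 2 receptors summed, and 8 genes of vomeronasal transduction or chaperoning, with antisense left of sense. The receptor sums lie between 2348 and 4048 CPM, while Trpc2, Omp, Calr4, Gng8, Ano1 and Ano2 lie at a few CPM or below, Trpc2 at 0 in 1 library of each group.

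Among 11 genes of vomeronasal neuron identity and wiring, 9 were tested. By edgeR 0 were higher and 0 lower at an adjusted p under 0.05, 0 and 2 at an unadjusted p under 0.05, and DESeq2, run without the filter on low counts, gave 1 and 0. The genes under an unadjusted p of 0.05 were Bcl11b and Robo2, and the gene called by DESeq2 was Tfap2e. Tfap2e, a transcription factor of the basal lineage, was not tested by edgeR, with 4, 16 and 7 counts in antisense and 0 in every sense library. Of 10 class I genes, 5 were at 0 in every library and 2 were tested. H2-M10.2 had 13.1, 17.1 and 18.1 counts in antisense and 0 in every sense library, at least 13.1-fold higher with the sense group set to 3 counts in all (edgeR adjusted p = 5.27e-05). It passed the filter on low counts through antisense alone, so it had to differ, and its p is no independent support. B2m, the light chain of class I molecules, did not pass (log2 fold change -0.04, edgeR adjusted p = 0.92). None of 7 formyl peptide receptor genes, some of which mark another group of vomeronasal neurons, had enough counts to be tested. Of 9 genes of main olfactory transduction, 4 were tested, with 0 higher and 0 lower by edgeR at an adjusted or an unadjusted p under 0.05, and 0 and 0 by DESeq2. The class C relatives of type 2 receptors included 2 tested genes, both of taste receptors and both higher. Tas1r3 had 17.2, 15.6 and 20.4 CPM in antisense and 3.56, 4.60 and 2.86 CPM in sense (log2 fold change 2.25, edgeR adjusted p = 1.84e-06), and Tas1r1 had 35, 33 and 60 counts in antisense and 1, 2 and 0 counts in sense, so that it too passed the filter through antisense alone.

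Receptor families differed in how often they were counted. Summed counts of 30 or more were reached by 197 of 337 vomeronasal receptor symbols (58.5%), 488 of 1116 odorant receptor genes (43.7%), 16 of 230 vomeronasal receptor pseudogenes (6.96%) and 2 of 35 bitter taste receptor genes (5.71%). All 15 trace amine-associated receptor genes were at 0 in every library. Of 402 tested odorant receptor genes, 93 were higher (23.1%) and 35 lower (8.71%), with a median log2 fold change of 0.22. The shares of all tested genes were 18.2% higher and 4.35% lower. Of 9 tested vomeronasal pseudogenes 4 were higher and 0 lower by edgeR (5 and 0 at an unadjusted p under 0.05), and 6 and 0 by DESeq2.

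The authors' deposited table, whose log2 fold changes run sense over antisense, held 195 of these genes once and 2 more than once. At an adjusted p under 0.05, the authors' deposited table gave 42 of them as higher and 15 as lower in antisense, and all of these passed the same way in the edgeR test. The shares over all genes of the deposited table were not computed. Both comparisons rest on the same 6 libraries, so the shared calls and directions are no independent support. The authors' deposited table gave -2.82 for Vmn1r14, -1.04 for Vmn1r55, 2.52 for Vmn1r47 and 0.61 for Vmn2r53, sense over antisense. Direction was the same in the authors' deposited table and the edgeR fit for 170 of 171 genes tested here and listed once, the exception being Vmn1r85, which passed in neither.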

How the data were processed

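RNA of a Gas5 pulldown was sequenced as total RNA in 6 libraries, 3 antisense and 3 sense, grouped by the labels' titles. The authors deposited a table of estimated counts per gene symbol. Per the submitters' processing notes the tools were Salmon and DESeq and the build GRCm38, without versions; information on index, library kit and strand is not given in the sources used here. The comparison table deposited by the authors lists, per gene, the mean signal over libraries, the log2 fold change of sense over antisense and its SE, a Wald score, and raw and adjusted p-values; it was read only beside the edgeR results.

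Genes were chosen by symbol and a summed count of 30; the members and all lists were chosen with earlier results of these data known. Estimated counts were rounded, genes kept with filterByExpr (minimum count 10) and libraries scaled with TMM. The two-sided quasi-likelihood F test of edgeR 4.0.16 (R 4.3.3) compared antisense minus sense over all kept genes, with Benjamini-Hochberg adjustment at 0.05; CPM use the TMM-effective library size, and the SE is the size of the log2 fold change over the square root of F. Tables were made with Python 3.11.15 and pandas 2.3.3. Alternatives were DESeq2 1.42.0, plain library totals, Gas5 left out, other count filters and floors, each library left out, and the replicate number as a block. On simulated counts for antisense minus sense (19917 genes tested), 12 of 67 genes changed 1.5-fold were recovered (17.9%), 42 of 67 changed 2-fold (62.7%) and 64 of 66 changed 4-fold (97%), with 6 false calls. The simulation gave every gene the same dispersion and drew the changed genes from all kept genes. These shares are therefore not those for the receptor genes or for abundant genes. Depth was 5775052 to 10424167 counts per library; the floor of 3 counts covers counting error alone, because PCR copies of a molecule cannot be told apart.

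Named were up to 12 genes per direction by size of log2 fold change among those passing, the 10 with the highest summed count, up to 5 at 0 in all libraries of a group, 5 with the largest share in a single library, 3 on each side of the floor, and up to 8 overlapping a gene with a mean of 10 CPM or more. Vmn2r1, Vmn2r3 to Vmn2r7, Vmn2r26, Vmn2r89 and Vmn2r116 are not picked by this rule. Nor are genes shown as neighbours, for near-identical start windows or by level per length. The values of all of these were known when they were chosen. Gene positions and start windows came from RefSeq (GRCm38.p6), matched by symbol.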

Additional observations from a re-analysis of the deposited data

How the results depend on the processing

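The main setting gave 53 higher and 16 lower of 173 tested receptor genes, against 3658 and 873 of all 20049. The number tested changed with the setting. DESeq2 gave 43 and 15 of 197 (3847 and 606 of all 35255). With Gas5 left out there were 55 and 17 of 174 (3519 and 741 of all 20033). A minimum count of 20 gave 50 and 15 of 148 (2808 and 681 of all 17167). A minimum count of 5 gave 55 and 18 of 195 (4396 and 997 of all 22804). No filter gave 54 and 18 of 197 (5027 and 998 of all 35255). A floor of 10 summed counts gave 53 and 16 of 173, and 100 gave 50 and 16 of 156. Genes overlapping no other gene gave 45 and 14 of 156. Without single libraries 39 to 57 receptor genes were higher and 13 to 16 lower, out of 177 to 184 tested. Over all genes 3392 to 3987 were then higher and 492 to 1100 lower, out of 20647 to 21135. Of the main calls, 37 of the 53 higher and 11 of the 16 lower genes passed whichever library was left out. On plain library totals 125 of 173 were higher and 3 lower, against 12804 and 62 of all 20049. The ratio of summed levels was then 1.72, and the median of all genes was 0.70 on the log2 scale (0.11 with DESeq2). Plain library totals leave the Gas5 counts in. The ratio of summed levels, 1.07, was 1.17 without Vmn2r53 and 1.04 to 1.12 without single libraries. It was 1.18 for genes overlapping no other gene, a set that also leaves out Vmn2r53. On plain library totals the log2 fold change turned positive for Vmn2r86 (0.01), Vmn2r73 (0.03), Vmn1r217 (0.05), Vmn2r53 (0.08), Vmn1r207 (0.10), Vmn2r114 (0.37), Vmn2r120 (0.57), Vmn1r76 (0.60) and Vmn2r115 (0.63); the part of each gene's own counts in this was not tested. That of Vmn2r76, 0.05 and not passing, was -0.00055 to 0.11 without single libraries. Of 28 named genes that passed, 23 passed whichever library was left out.

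Antisense and sense share replicate numbers, and no pairing is stated. Deviations of same-numbered libraries from their group means correlated at 0.0776, -0.0995 and -0.0108, and those of differently numbered libraries at -0.177 to 0.185. With 3 libraries per group this cannot decide whether same-numbered libraries share a culture or batch. With the replicate block 50 of 173 tested receptor genes were higher and 16 lower, against 3428 and 695 of all 20049. Genes with few counts limit what could be seen: 24 of the 197 were not tested.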
